A study of Mus musculus with 4 samples.

Results

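The 10 genes described here encode the 3 PPAR receptors (Ppara, Ppard and Pparg), their RXR partners (Rxra and Rxrb), the liver X receptor alpha (Nr1h3), the coactivators Ppargc1a and Ppargc1b, the corepressor Ncor1 and the PPAR target Angptl4. They were chosen by name from 38124 gene identifiers in the deposited tables. Each symbol matched 1 identifier, and all 10 were among the 10694 genes that passed the filter on low counts.

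PPARs are nuclear receptors that bind fatty acids and their derivatives. Each pairs with an RXR on DNA, usually at a repeat of AGGTCA half-sites set 1 base apart (a DR1 element), and switches on genes of fatty acid uptake and oxidation. Without ligand the pair holds corepressors such as NCoR1, and with ligand it recruits coactivators such as the PGC-1 proteins. In the small intestine PPAR-alpha and PPAR-delta are known for the response of epithelial cells to dietary fat.

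RNA was taken from C57BL/6 male mice aged 71 weeks, fed either a high-fat diet (HFD) or a normal diet (control). The labels title the control libraries WT. Intestinal cells were sorted by GFP, and the labels call the GFP-high fraction intestinal stem cells and the GFP-low fraction progenitors. Each of the 4 combinations of diet and fraction gave 1 poly(A) library, pooled from 2 to 5 mice, so no group had a replicate. The promoter behind the GFP signal is not given in the sources used here, and it is not stated whether GFP-high and GFP-low cells were sorted from shared animals. If they were, the p-values for diet are too small.

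The libraries held 4677389 to 6207080 counts, and 3 counts, the limit that a count of 0 allows, equal 0.449 to 0.68 CPM (counts scaled to effective library size by the TMM method). GFP-high matched its label: all 10 stem cell markers examined were higher there by edgeR's test. They summed to 10670 and 9640 CPM in GFP-high (control, then HFD) against 2034 and 1512 CPM in GFP-low. Progenitor markers were not examined, so the GFP-low label was not checked. Most tested goblet, Paneth, enterocyte, enteroendocrine and tuft genes were lower in GFP-high by the same test. Fibroblast markers had at most 1 count per library, with 5 of 6 genes at 0, and the adipocyte genes Adipoq, Lep and Plin1 had none. The other adipocyte genes were Retn, with at most 2 counts, and Cidec, with 10 and 13 counts in GFP-high and 12 and 41 in GFP-low (control, then HFD). The 12 leukocyte genes summed to 21.4 to 48.9 CPM, mostly from Cd14 and Itgam, while Ptprc, Adgre1 and Csf1r had no count in any library. Enterocyte markers moved with both factors: 12 genes summed to 1381 and 1889 CPM in GFP-high and to 3882 and 8899 CPM in GFP-low (control, then HFD). By edgeR's test 7 of these 12 rose under HFD and 11 were lower in GFP-high. In GFP-low, goblet genes summed to 40660 CPM in control and 17846 in HFD, with none of 8 called for diet by edgeR or DESeq2, and Paneth genes, of which 6 of 7 fell by edgeR's test, to 2302 and 1110 CPM. In bulk samples fewer cells of a type and less RNA per cell cannot be told apart. Mitochondrial ribosomal RNA took 1.18% of the counts in HFD GFP-high against 2.54% to 2.82% in the other libraries. Diet ratios are given within each fraction as well as over both. The split does not remove this difference, which within GFP-high cannot be told apart from diet. This limit holds for every diet ratio in GFP-high below.

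Levels below are counts scaled by the TMM method to CPM. A comparison over both fractions or both diets is an edgeR quasi-likelihood test in 1 additive model of the 4 libraries, adjusted over all tested genes (threshold 0.05). Its 1 residual degree of freedom is the diet-by-fraction difference, and the spread is partly shared across genes. That difference mixes a true diet-by-fraction difference, variation among these pools and technical variation, which cannot be told apart. If both fractions came from the same animals, variation between the pools of the diets does not enter it. The p-values are therefore no measure of variation between mice. The SE after ± is the size of the log2 value divided by the square root of that test's F statistic. It is not a standard error over replicates. A ratio within a fraction or diet has 1 library on each side and no test. It is a log2 ratio after adding 0.5 CPM, followed by the exact 95% interval of the ratio of counts, which covers counting error only.

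Over both fractions, 2 of the 10 genes rose under HFD, none fell and 8 did not pass, against 6.46% of all tested genes called for diet in either direction. The genes that rose were Angptl4 and Ppargc1a. The median log2 change of the 10 was 0.40, beside 0.01 over all tested genes. Between the fractions, 6 of the 10 were lower in GFP-high (Ppara, Ppard, Pparg, Rxra, Nr1h3 and Ppargc1a), none was higher and 4 did not pass, against 47.6% of all tested genes called, so a call between the fractions was common among all genes. The shares of 6.46% and 47.6% are also the background for edgeR's calls in the gene lists below. The 10 genes and these lists were chosen with earlier results of the data known, so the shares are no test of them. DESeq2's Wald test called 1 of the 10 for diet (Angptl4) and 4 between the fractions. Scaling by library totals moved the median of all genes by 0.19 towards GFP-high and gave 3633 higher and 1903 lower genes there, in place of 2350 and 2740 with TMM. With that scaling the same 6 genes still had negative log2 values, Pparg no longer passed (adjusted p = 0.112, range over 7 alternatives 0.0349 to 0.293) and Rxrb was called higher in GFP-high (adjusted p = 0.00901, range over 8 alternatives 0.00901 to 0.505).

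**Figure D1:**
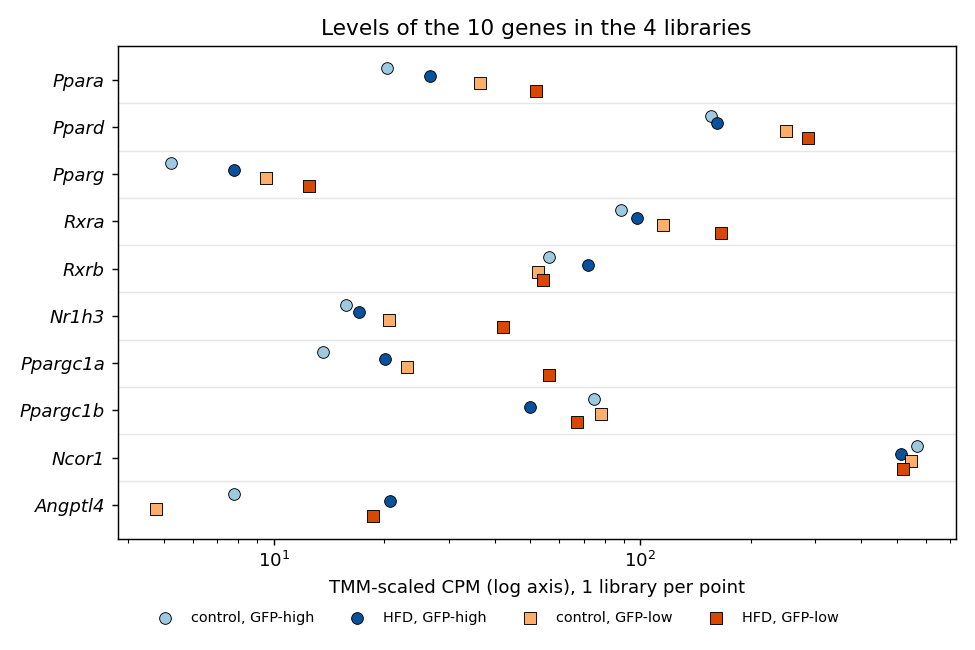
TMM-scaled CPM (log axis) of each of the 10 genes, 1 point per library, with GFP-high as circles, GFP-low as squares, control in light and HFD in dark colours. Ncor1 lies between 513 and 570 CPM in all libraries, while Ppargc1a spreads from 13.6 to 56.5 CPM and Angptl4 from 4.76 to 20.8 CPM.

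Ppard, the receptor that is expressed widely and known for fatty acid oxidation, was the most abundant PPAR. The gene (ENSMUSG00000002250) lies on the plus strand at chr17:28232700-28301474 on GRCm38. It had 156 CPM in control GFP-high, 162 in HFD GFP-high, 250 in control GFP-low and 286 in HFD GFP-low. Both GFP-low libraries lay above both GFP-high libraries, and the diets differed little within a fraction. Ppard was 1.69-fold lower in GFP-high (edgeR log2 -0.76 ± 0.10 SE, adjusted p = 1e-05). For diet its log2 value was 0.13 ± 0.10 SE (edgeR adjusted p = 0.506), with 0.05 in GFP-high (interval -0.08 to 0.19) and 0.19 in GFP-low (interval 0.08 to 0.31). The most abundant receptor had the diet ratio nearest to 1 of the 3 PPARs.

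The stretch before the Ppard start is shown because this receptor supplied most PPAR message in all 4 libraries. It covers chr17:28232554-28232699 (GRCm38, plus strand, from RefSeq), upstream of the first annotated exon, with the GC box GGGCGG in capitals.
Ppard: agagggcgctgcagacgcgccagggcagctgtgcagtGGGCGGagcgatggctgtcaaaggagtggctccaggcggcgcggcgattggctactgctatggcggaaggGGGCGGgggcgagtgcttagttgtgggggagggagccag
The stretch holds 2 GC boxes. Searched on both strands in the 250 bases before a start, GGGCGG occurred at 6 of the 8 genes of the set that have an entry (Ppara, Ppard, Pparg, Rxra, Rxrb and Ncor1) and at 35.4% of all 27025 genes with an entry. Genes can have several windows, and by window it occurred in 8 of 14 of the set and in 32.7% of all 32851. Angptl4 and Ppargc1b are the others of the set.

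Ppara, the receptor known for induction of fatty acid oxidation and ketone body synthesis, followed the same order of libraries at a lower level. It lies at chr15:85734983-85802819 (plus strand, ENSMUSG00000022383). Its level was 20.3 CPM in control GFP-high, 26.7 in HFD GFP-high, 36.5 in control GFP-low and 52.0 in HFD GFP-low. Ppara was 1.88-fold lower in GFP-high (edgeR log2 -0.91 ± 0.14 SE, adjusted p = 7.27e-05), and both GFP-low libraries lay above both GFP-high ones. For diet the log2 value was 0.46 ± 0.14 SE, which missed the threshold (edgeR adjusted p = 0.0689). The log2 ratio was above 0 in each fraction beyond counting error, at 0.39 in GFP-high (interval 0.05 to 0.75) and 0.51 in GFP-low (interval 0.22 to 0.80).

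Pparg, the receptor known from fat cells and also made by intestinal epithelium, was the lowest of the 3. It lies at chr6:115360951-115490399 (plus strand, ENSMUSG00000000440) and had 29 and 52 counts in GFP-high (control, then HFD) and 42 and 62 in GFP-low, or 5.25, 7.79, 9.52 and 12.5 CPM. It was 1.69-fold lower in GFP-high (edgeR log2 -0.76 ± 0.28 SE, adjusted p = 0.0374), a call that DESeq2 did not make (adjusted p = 0.293). The diet value was 0.48 ± 0.29 SE (edgeR adjusted p = 0.378), and at this depth the intervals within GFP-high (-0.11 to 1.28) and within GFP-low (-0.19 to 1.0) both held 0. A diet difference in Pparg was not detected.

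Per kilobase of exon, Ppard took 74.6% of the PPAR counts in control GFP-high, 69.2% in HFD GFP-high, 72.3% in control GFP-low and 68.2% in HFD GFP-low. Ppara took 19.0%, 22.4%, 20.7% and 24.2% in the same order. Pparg took 6.4%, 8.48%, 7% and 7.6%. The share of Ppard was lower under HFD in each fraction. Exact 95% intervals of its share of raw counts (control, then HFD) were 83.6% to 88.0% and 80.3% to 84.5% in GFP-high. In GFP-low they were 82.4% to 86.4% and 79.7% to 83.4%. The intervals overlapped between the diets, which does not show that the difference lies within counting error. The difference in share was not tested. The summed level of the 3 receptors was 181 CPM in control GFP-high, 196 in HFD GFP-high, 296 in control GFP-low and 351 in HFD GFP-low.

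**Figure D2:**
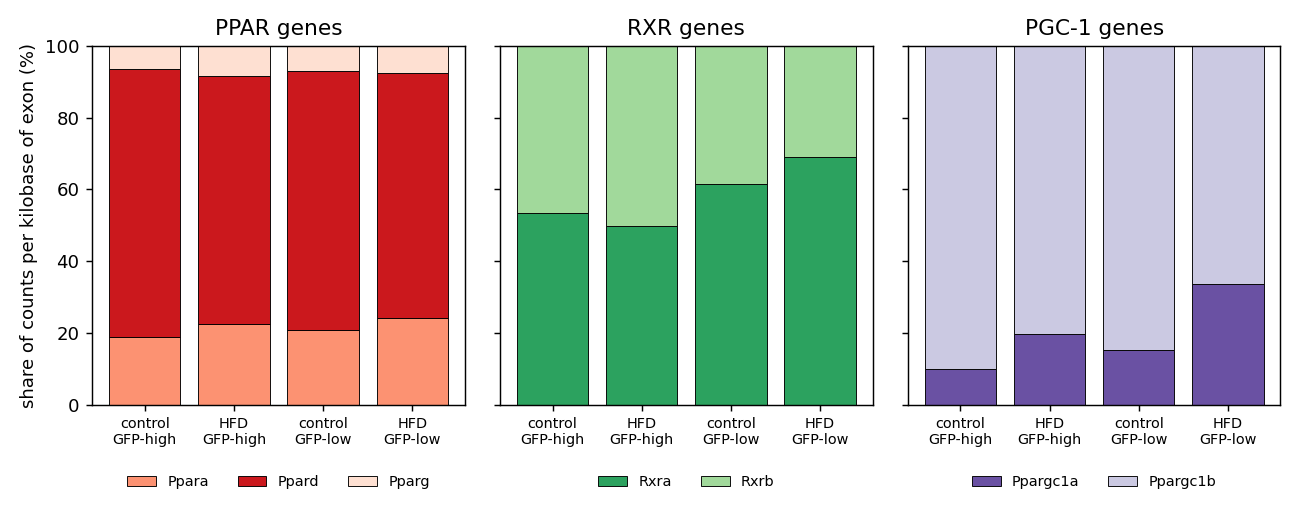
Share of each gene in the summed counts per kilobase of exon (%) of the PPAR, RXR and PGC-1 genes, 1 bar per library. Ppard fills 68.2% to 74.6% of every PPAR bar, Rxra 49.8% to 69.1% of the RXR bars, and Ppargc1a 9.92% to 33.7% of the PGC-1 bars.

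Among the obligate partners, Rxra and Rxrb differed in their pattern. Rxra (ENSMUSG00000015846, chr2:27676440-27762957, plus strand) had 88.7 CPM in control GFP-high, 98.1 in HFD GFP-high, 115 in control GFP-low and 166 in HFD GFP-low. It was 1.49-fold lower in GFP-high (edgeR log2 -0.58 ± 0.11 SE, adjusted p = 0.000633), a call lost without diet as a term (adjusted p = 0.0593, range over 8 alternatives 5.89e-07 to 0.0593). For diet its log2 value was 0.34 ± 0.11 SE (edgeR adjusted p = 0.0869), with 0.14 in GFP-high (interval -0.03 to 0.32) and 0.53 in GFP-low (interval 0.37 to 0.69). The HFD GFP-low library was the highest and stood apart from the other libraries.

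Rxrb (ENSMUSG00000039656, chr17:34031812-34038399, plus strand) was instead highest in HFD GFP-high, at 71.9 CPM, against 56.3 in control GFP-high, 52.6 in control GFP-low and 54.2 in HFD GFP-low. Neither its fraction value (edgeR log2 0.26 ± 0.12 SE, adjusted p = 0.0965) nor its diet value (0.21 ± 0.12 SE, edgeR adjusted p = 0.369) passed. Its log2 diet ratio was 0.35 in GFP-high (interval 0.14 to 0.56) and 0.04 in GFP-low (interval -0.21 to 0.30). Rxrg, the third isotype, had 0 counts in every library, which allows up to 0.68 CPM. Rxra took 61.2% (exact 95% interval 57.7 to 64.6) and 57.7% (54.8 to 60.6) of the RXR counts in GFP-high under control and HFD. In GFP-low its share was 68.6% (65.2 to 72.0) and 75.4% (72.7 to 77.9). Under HFD the count share of Rxra was thus lower in GFP-high, with intervals that overlapped, and higher in GFP-low, with intervals that did not. Per kilobase of exon Rxra and Rxrb were nearly even in GFP-high (Rxra 53.4% and 49.8%), and per kilobase of the longest transcript Rxrb was ahead there (Rxra 45.8% and 42.2%). Whether these diet ratios differ between the fractions was not tested, since there is 1 library for each.

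Of 12 other receptors that pair with RXR, 9 were tested. For diet 1 rose and none fell, and between the fractions 2 were higher and 3 lower in GFP-high. The gene that rose over both fractions was Nr1i3 (CAR), a xenobiotic receptor (edgeR log2 0.78 ± 0.18 SE, adjusted p = 0.0158). In GFP-high it had 6.15 and 7.49 CPM (control, then HFD), with an interval that held 0 (log2 0.26, interval -0.37 to 0.96). In GFP-low it went from 33.8 to 65.6 CPM (log2 0.95, interval 0.67 to 1.25). Nr1i2 (PXR), the other main xenobiotic receptor, had a diet value of 0.37 ± 0.15 SE (edgeR adjusted p = 0.203) and Thra, a thyroid hormone receptor, of 0.32 ± 0.10 SE (edgeR adjusted p = 0.0781). The lowest values were those of Nr4a2 (-0.24 ± 0.25 SE), Nr1h2, the second liver X receptor (-0.23 ± 0.10 SE), and Nr1h4, the bile acid receptor FXR (-0.12 ± 0.16 SE), which did not pass. The list's median was 0.10 for diet, and DESeq2 called none of the 9 for diet (1 at an unadjusted p under 0.05).

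Nr1h3 encodes the liver X receptor alpha, an oxysterol receptor that also pairs with RXR. It lies at chr2:91184061-91202834 (minus strand, ENSMUSG00000002108), and 34 of its exon bases are shared with Gm13783, which had 0 or 1 counts per library. Nr1h3 had 15.7 CPM in control GFP-high, 17.1 in HFD GFP-high, 20.6 in control GFP-low and 42.3 in HFD GFP-low. One library, HFD GFP-low, was high and the other libraries lay close together. Nr1h3 was 1.89-fold lower in GFP-high over both diets (edgeR log2 -0.92 ± 0.21 SE, adjusted p = 0.00331), with -0.38 in control (interval -0.83 to 0.05) and -1.28 in HFD (interval -1.65 to -0.97). DESeq2 gave an adjusted p of 0.0593 (range over 8 alternatives 9.46e-07 to 0.102). The diet value did not pass (0.62 ± 0.21 SE, edgeR adjusted p = 0.111). It was 0.11 in GFP-high (interval -0.30 to 0.54) and 1.02 in GFP-low (interval 0.67 to 1.41).

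Of 16 liver X receptor targets, 12 were tested. The list does not state in which direction the receptor acts on each gene, so the counts do not measure its activity. For diet 3 rose and 1 fell, with a median of 0.27 (DESeq2 1 and 1). The genes with the highest values were Npc1l1, the intestinal cholesterol importer (0.66 ± 0.11 SE, edgeR adjusted p = 0.00127), Lpcat3, a phospholipid-remodelling enzyme (0.65 ± 0.10 SE, edgeR adjusted p = 0.00082), and Apoe, an apolipoprotein that did not pass (0.64 ± 0.35 SE, edgeR adjusted p = 0.317). The other gene that rose was Abcg5, a sterol exporter subunit (0.53, edgeR adjusted p = 0.0167), named here after its value was seen. The gene that fell was the desaturase Scd2 (-1.74 ± 0.13 SE, edgeR adjusted p = 3.74e-06), and the fatty acid synthesis genes Acaca (-0.35 ± 0.11 SE) and Fasn (-0.19 ± 0.09 SE) did not pass. A pair of classical targets also did not pass for diet: Abca1, the cholesterol exporter, at 0.22 ± 0.29 SE (edgeR adjusted p = 0.736) and Srebf1, which drives fatty acid synthesis, at 0.18 ± 0.10 SE (edgeR adjusted p = 0.36). Between the fractions 6 of the 12 were lower and 2 higher in GFP-high (median -0.39), and Abca1 was among the higher (log2 2.0, edgeR adjusted p = 6.48e-05).

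Ppargc1a encodes PGC-1 alpha, a coactivator of PPARs and other nuclear receptors that is known for mitochondrial biogenesis and oxidative metabolism. It lies at chr5:51454250-51567726 (minus strand, ENSMUSG00000029167). Its counts were 75 in control GFP-high, 134 in HFD GFP-high, 102 in control GFP-low and 279 in HFD GFP-low, or 13.6, 20.1, 23.1 and 56.5 CPM. The HFD library was higher in each fraction. HFD GFP-high lay below both GFP-low libraries, but its counting interval overlapped that of control GFP-low. Over both fractions Ppargc1a rose 1.97-fold under HFD (edgeR log2 0.98 ± 0.18 SE, adjusted p = 0.00492), with 0.55 in GFP-high (interval 0.15 to 0.99) and 1.27 in GFP-low (interval 0.96 to 1.63). DESeq2 did not call it for diet (log2 0.93, adjusted p = 0.158, range over 8 alternatives 2.37e-07 to 1). It was 2.31-fold lower in GFP-high (edgeR log2 -1.21 ± 0.18 SE, adjusted p = 0.000101), a call lost without diet as a term (adjusted p = 0.14, range over 8 alternatives 2.21e-12 to 0.14).

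The stretch upstream of Ppargc1a is shown because, of the coactivators in the set, this gene was the one called for diet. It covers chr5:51567727-51567925 (GRCm38, minus strand, from RefSeq).
Ppargc1a: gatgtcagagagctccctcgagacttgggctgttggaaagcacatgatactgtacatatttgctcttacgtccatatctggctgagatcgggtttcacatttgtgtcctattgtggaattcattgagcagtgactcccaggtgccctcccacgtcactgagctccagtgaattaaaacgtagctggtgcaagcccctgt
It has no capitals because neither motif searched there occurs in its letters on either strand. They were GGGCGG and the full cyclic AMP response element TGACGTCA (in 1.55% of all windows of 250 bases). Only exact matches were searched, so shorter or mismatched forms of the element may be present.

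Ppargc1b encodes PGC-1 beta, a relative with overlapping targets. It lies at chr18:61298136-61400431 (minus strand, ENSMUSG00000033871). Its level was 74.6 CPM in control GFP-high, 49.9 in HFD GFP-high, 77.9 in control GFP-low and 67.2 in HFD GFP-low. Both HFD libraries lay below both control libraries, but the counting interval of HFD GFP-low overlapped those of both control libraries. The diet value was -0.40 ± 0.12 SE, which missed the threshold (edgeR adjusted p = 0.0641), with -0.58 in GFP-high (interval -0.79 to -0.37) and -0.21 in GFP-low (interval -0.44 to 0.01). The fraction value did not pass either (-0.24 ± 0.12 SE, edgeR adjusted p = 0.115).

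The balance of the PGC-1 genes differed between the HFD and the control library of each fraction. Ppargc1a made up 15.4% of the counts of the pair in control GFP-high (exact 95% interval 12.3 to 18.9) and 28.7% in HFD GFP-high (24.6 to 33.0). In GFP-low it made up 22.9% in control (19.1 to 27.1) and 45.7% in HFD (41.7 to 49.7). The intervals did not overlap between the diets in either fraction, but they cover counting error only and not variation between pools. Per kilobase of exon the shares were 9.92%, 19.6%, 15.2% and 33.7%, so Ppargc1b remained the more abundant message in all 4 libraries. The summed level of the pair was 88.2 CPM in control GFP-high, 70.0 in HFD GFP-high, 101 in control GFP-low and 124 in HFD GFP-low.

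All 10 genes listed as partners of PGC-1 or as mitochondrial transcription factors were tested, and none was called for diet by edgeR or DESeq2 (2 and 0 at an unadjusted p under 0.05). Their median was 0.18. The highest were Tfb2m, a mitochondrial transcription factor (0.59 ± 0.31 SE), Sirt3, a mitochondrial deacetylase (0.52 ± 0.27 SE), and Polrmt, the mitochondrial RNA polymerase (0.30 ± 0.12 SE). The lowest were Gabpb1 (-0.27 ± 0.15 SE), a subunit of the factor GABP, Tfb1m (-0.08 ± 0.33 SE), a methyltransferase of mitochondrial ribosomal RNA, and Nrf1 (-0.04 ± 0.13 SE), a regulator of respiratory genes. The edgeR adjusted p-values of the genes named here lay between 0.168 and 0.926. Between the fractions 1 of the 10 was higher and 2 were lower in GFP-high.

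Ncor1, the corepressor that PPARs hold without ligand, lies at chr11:62316426-62458541 (minus strand, ENSMUSG00000018501). Its exons overlap those of Pigl by 82 bases and of Ttc19 by 1 base on the opposite strand, and these genes had 62 to 135 counts against 2414 to 3422 for Ncor1. Ncor1 was at 570 CPM in control GFP-high, 513 in HFD GFP-high, 547 in control GFP-low and 520 in HFD GFP-low, the narrowest spread of the 10 genes (log2 span 0.15). Neither diet (edgeR log2 -0.11 ± 0.10 SE, adjusted p = 0.563) nor fraction (0.02 ± 0.10 SE, edgeR adjusted p = 0.89) passed. The log2 diet ratio was -0.15 in GFP-high (interval -0.22 to -0.08) and -0.07 in GFP-low (interval -0.15 to 0.01).

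All 7 other genes of the corepressor list were tested. For diet none rose and 1 fell, Tbl1x, a subunit of the NCoR complex (-0.40 ± 0.10 SE, edgeR adjusted p = 0.0309). The others named, Tbl1xr1 (-0.20), Nrip1 (0.03), Gps2 (0.08) and Sirt1 (0.08), did not pass. Between the fractions 3 of the 7 were higher in GFP-high, a share near the 47.6% of all genes called, and the count was 6 with library totals and 1 with DESeq2. Of the 10 coactivators listed, all tested, 2 fell under HFD and none rose, with a median of -0.26. They were the acetyltransferase Ep300 (-0.42 ± 0.10 SE, edgeR adjusted p = 0.015) and the p160 coactivator Ncoa2 (-0.35 ± 0.10 SE, edgeR adjusted p = 0.0478). DESeq2 called none of these coactivators or corepressors for diet (1 of each list at an unadjusted p under 0.05). Ncoa3 (-0.35 ± 0.12 SE) was close to Ncoa2 and did not pass (edgeR adjusted p = 0.085), while Ncoa6 (-0.16), Ncoa1 (-0.07) and the methyltransferase Carm1 (-0.06) lay nearer to 0.

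Angptl4 encodes a secreted inhibitor of lipoprotein lipase and is a widely used PPAR target. It lies at chr17:33773750-33781830 (minus strand, ENSMUSG00000002289). It had 43 counts in control GFP-high, 139 in HFD GFP-high, 21 in control GFP-low and 92 in HFD GFP-low, or 7.78, 20.8, 4.76 and 18.6 CPM. Both HFD libraries lay above both control libraries. Angptl4 rose 3.12-fold under HFD (edgeR log2 1.64 ± 0.25 SE, adjusted p = 0.000474; DESeq2 adjusted p = 0.0112), with ratios of 2.68 in GFP-high and 3.91 in GFP-low (log2 intervals 0.92 to 1.95 and 1.27 to 2.73). It was the only one of the 10 genes with at least a 2-fold difference in GFP-high, where 2.32% of genes with 5 CPM in the higher library reached that size. In GFP-low it was 1 of 3, with Ppargc1a (2.44-fold) and Nr1h3 (2.05-fold), against 4.22% of genes. Angptl4 was not called between the fractions (edgeR log2 0.33 ± 0.24 SE, adjusted p = 0.272), and its value there was positive where those of the PPARs, Rxra, Nr1h3 and Ppargc1a were negative. The 7 enterocyte markers called for diet were higher over the same libraries, and their part in the diet values of Angptl4 and Ppargc1a was not tested.

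**Figure D3:**
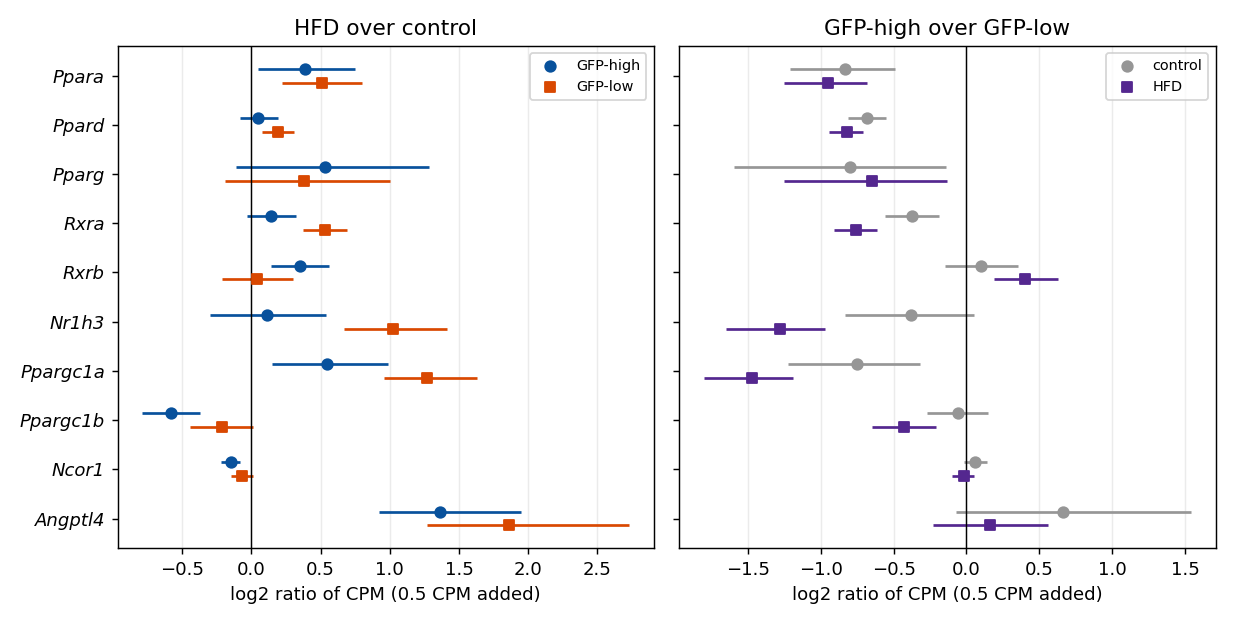
Log2 ratios of CPM (0.5 CPM added) of the 10 genes, HFD over control in each fraction on the left and GFP-high over GFP-low in each diet on the right, with exact 95% counting intervals as bars. Both diet intervals of Angptl4, Ppargc1a and Ppara lie above 0, and both fraction intervals of Ppara, Ppard, Pparg, Rxra and Ppargc1a lie below 0.

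Lipoprotein lipase itself was barely present: Lpl had 11, 15, 21 and 20 counts (control and HFD GFP-high, control and HFD GFP-low), with a diet value of -0.06 ± 0.40 SE (edgeR adjusted p = 0.954). Of 9 genes of this axis 4 were tested and none was called for diet by edgeR with TMM scaling or by DESeq2 (2 and 1 at an unadjusted p under 0.05). Pcsk5, a protease of the family that cleaves angiopoietin-like proteins, had 0.52 ± 0.14 SE (edgeR adjusted p = 0.0519), and the lipase maturation factor Lmf1 had 0.35 ± 0.14 SE (edgeR adjusted p = 0.179). Pcsk7, a related protease, had -0.02 ± 0.16 SE (edgeR adjusted p = 0.964). With library totals edgeR called 1 of the 4 higher for diet. Between the fractions all 4 were lower in GFP-high by edgeR with TMM scaling, against 2 with library totals and 2 with DESeq2.

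Of 48 other PPAR targets, 37 passed the filter, 24 rose under HFD and none fell, with a median of 0.68 beside 0.01 over all tested genes. Of all tested genes, 6.46% were called for diet in either direction. The list was chosen with earlier results of these data known, so its share of called genes is not independent evidence. It does not state in which direction PPARs act on each gene, so the counts do not measure their activity. DESeq2 called 15, all higher. Between the fractions 24 of the 37 were lower and 6 higher in GFP-high (median -0.46), against 16 and 3 by DESeq2. A call between the fractions was made for 47.6% of all tested genes. The part of the enterocyte markers in these counts was not tested. The 11 below the filter include Cyp4a10, a fatty acid hydroxylase that had 3 counts under control in each fraction and 14 (GFP-high) and 68 (GFP-low) under HFD, and Fabp4, Fgf21 and Cyp4a14, which had none. Among the highest values were those of Pdk4, a kinase that restrains pyruvate oxidation, and Fabp1, a fatty acid carrier. Pdk4 rose (log2 3.36 ± 0.35 SE, adjusted p = 1.14e-05 by edgeR), from 2.53 to 19.9 CPM in GFP-high and from 0.906 to 16.8 CPM in GFP-low. Plin2, the lipid droplet coat protein, rose with a log2 value of 0.59 ± 0.14 SE (edgeR adjusted p = 0.0192), and Cpt1a, the gate of mitochondrial fatty acid entry, with 0.65 ± 0.10 SE (edgeR adjusted p = 0.000468). The lowest were Vnn1, Slc27a2 and Fads2, at -0.92 ± 0.57, -0.21 ± 0.14 and -0.18 ± 0.10 SE, which did not pass.

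**Figure D4:**
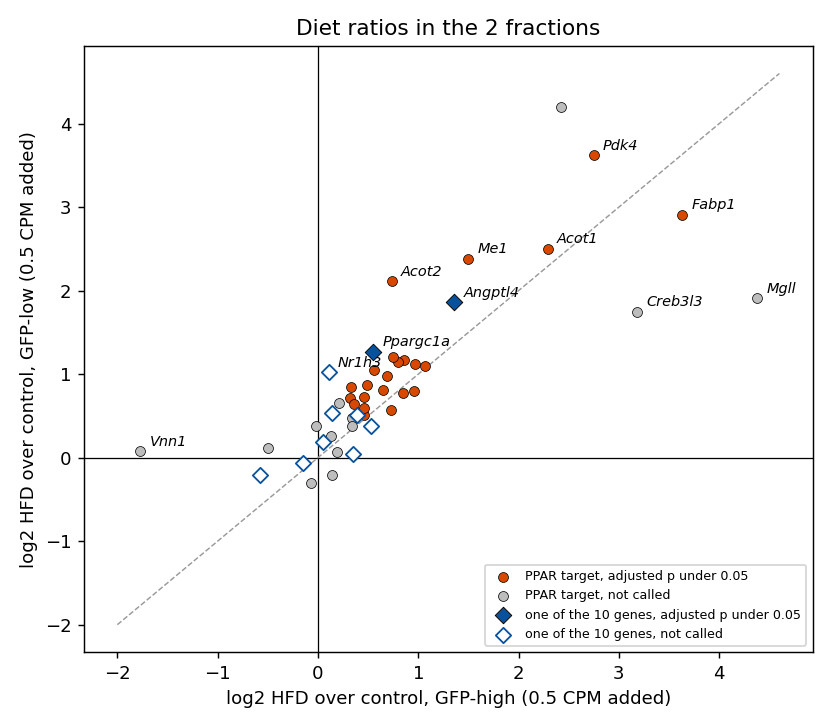
Log2 ratio of HFD over control in GFP-high (x axis) and GFP-low (y axis), 0.5 CPM added, for the 37 tested PPAR targets (circles, orange where called for diet and grey where not) and the 10 genes (diamonds, filled where called), with equality as a dashed line. Angptl4 (1.36 and 1.86) and Ppargc1a (0.55 and 1.27) lie above the line, Fabp1 (3.63 and 2.91) below it.

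The sequences below hold DR1-like matches in the 250 bases before annotated starts, found at the listed targets and the 10 genes. They are shown because PPAR and RXR bind such repeats. The search used AGGTCANAGGTCA on both strands with up to 2 mismatches among the 12 fixed bases. Each line reads 5′ to 3′ on the gene's strand, with the match in capitals. The Fabp1 and Plin2 windows lie outside annotated genes, at chr6:71199798-71199826 (plus strand) and chr4:86670258-86670298 (minus strand). The Cd36, Creb3l3 and Rxra windows lie in introns of their own genes, before internal starts, at chr5:17835933-17835973 (minus strand), chr10:81092774-81092806 (minus strand) and chr2:27709203-27709243 (plus strand). All are from RefSeq on GRCm38.
Fabp1: aaatcgacaatcacTGACCTATGGCCTat
Plin2: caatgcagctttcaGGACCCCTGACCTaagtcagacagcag
Cd36: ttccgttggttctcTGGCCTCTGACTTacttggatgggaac
Creb3l3: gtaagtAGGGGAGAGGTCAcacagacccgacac
Rxra: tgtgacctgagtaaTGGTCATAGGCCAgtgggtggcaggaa
The match in Fabp1 begins 67 bases before the start and has 1 mismatch, and the others have 2. Such a match occurred before 5 of the 37 targets with an entry, the fifth being Ucp3 (1 count in all), before 1 of the 8 genes of the set with an entry (Rxra), and before 3.72% of all genes with an entry. By window it occurred in 5 of 44 of the targets, 1 of 14 of the set and 3.24% of all. Of the genes shown, Fabp1 rose from 48 to 757 counts in GFP-high and from 497 to 4211 in GFP-low, and Plin2 rose as given above. Creb3l3, a transcription factor of lipid metabolism, went from 15 to 191 and from 224 to 850 counts. It did not pass by edgeR (adjusted p = 0.0775) but was called by DESeq2 (adjusted p = 0.0462). Cd36, a fatty acid transporter, was below the filter with 4, 2, 19 and 49 counts. A match is a description of letters and not evidence of binding.

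Fatty acid carriers that can deliver ligands were read from a list of 7 genes, of which 3 were tested. Fabp1 and Fabp2 rose (Fabp2 log2 1.09 ± 0.10 SE, edgeR adjusted p = 3.38e-06), and Fabp6, the ileal bile acid carrier, did not pass (0.52 ± 0.34 SE, edgeR adjusted p = 0.422). Fabp5, the carrier known for handing ligands to PPAR-delta, was below the filter with 12, 10, 6 and 9 counts. Fabp1 and Fabp2 belong to the target list and to the enterocyte markers as well, so they are not separate evidence.

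The order of the 10 genes per kilobase of exon placed Ncor1 first in all libraries, at 40.0 to 44.5 CPM per kilobase, and Ppard second, at 20.7 to 38.1. In HFD GFP-low their counting intervals met (39.1 to 42.2 and 36.1 to 40.1). In control GFP-high Ppard (20.7), Ppargc1b (18.7), Rxra (16.2) and Rxrb (14.2) followed each other with intervals that overlapped from one to the next, as did Nr1h3 (6.26) with Ppara (5.28), and Angptl4 (2.20), Ppargc1a (2.06) and Pparg (1.78). In HFD GFP-low Rxra (30.5) stood apart from its neighbours, and Ppargc1b (16.8), Nr1h3 (16.8), Rxrb (13.6) and Ppara (13.6) followed with overlapping intervals. Pparg was the lowest in 3 libraries and Angptl4 in control GFP-low (1.34). The order depends on the length used. Per kilobase of the longest transcript, a choice made after seeing the data, Ppard was ahead of Ncor1 in control GFP-low (67.1 and 60.5) and in HFD GFP-low (76.8 and 57.6), and the lowest gene was Ppargc1a in both GFP-high libraries and Angptl4 in both GFP-low libraries.

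For 6 of the 10 genes, the genes most like them in pattern were taken by the root mean square difference of centred log2 CPM over the 4 libraries, among 8746 genes. For Ppara these were Cisd3 (0.02), Dolpp1 (0.025) and Cpt2 (0.027), the last a carnitine transferase of fatty acid oxidation and one of the listed targets. For Ppard they were Prdx1 (0.013), Ykt6 (0.02) and Epha2 (0.022), and for Pparg Rdh11 (0.019), Commd9 (0.034) and Lamtor4 (0.037). For Ppargc1a they were Ces2g (0.024), Aadac (0.029) and Mettl7b (0.074), of which Ces2g went from 45.6 to 66.2 CPM in GFP-high and from 79.1 to 184 CPM in GFP-low. For Nr1h3 they were Lmbr1l (0.063), Cda (0.071) and Scarb2 (0.078). Angptl4 had no close match: the nearest, Mxra7 and Acot2, differed by 0.31 and Tmem64 by 0.35. With 4 libraries and many genes, such closeness is a description only.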

How the data were processed

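Poly(A) RNA from 4 pools of sorted cells was sequenced as strand-specific dUTP libraries, per the labels' protocols. The deposited values are raw counts per gene that the authors made. The submitters' processing notes name cutadapt, TopHat 1.4.1, HTSeq, GRCm38 and mm10. The sources used here give neither the annotation release nor the strand setting of the counting. Symbols came from a reference table (36345 of 38124 identifiers matched), and coordinates and exon lengths from GENCODE M21 on GRCm38.

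Counts were TMM-scaled over all genes with edgeR 4.0.16 in R 4.3.3. Genes with at least 20 counts in 2 libraries (10694) entered edgeR's quasi-likelihood F-test with robust spread, two-sided, Benjamini-Hochberg adjusted, with diet and fraction as terms. The common dispersion was 0.00695. Counts were also simulated with the same dispersion of 0.007 for every gene and 200 changed genes. There the test recovered 93.0% (diet) and 89.8% (fraction) of genes changed 2-fold, over 10562 and 10563 genes. The simulation had no gene-specific spread and no diet-by-fraction difference, so these shares are not the power in these data. DESeq2 1.42.0 was an alternative, with other scalings and filters.

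The genes, lists and tests were chosen with earlier results of these data known. Named list genes are the 3 highest and 3 lowest for diet (all of a list with at most 6 tested) plus some fixed by name. Cyp4a10, Fabp4, Fgf21, Cyp4a14 and the genes named for a motif match were chosen after their values were seen. Counting intervals are exact 95% binomial (Clopper-Pearson) or Poisson intervals. Motifs were searched in RefSeq windows on GRCm38.p6. Some genes that the naming rule selects are not reported here.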

Additional observations from a re-analysis of the deposited data

Results flagged for a closer look

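2 of the named genes had ratios of opposite sign in the 2 groups compared, each beyond counting error. Neither difference was tested, since each ratio has 1 library on a side. Vnn1, a pantetheinase listed as a PPAR target, was higher in GFP-high than in GFP-low under control (26.8 and 14.5 CPM, log2 0.86, interval 0.45 to 1.33) and lower under HFD (7.49 and 15.4 CPM, log2 -0.99, interval -1.58 to -0.50). Pcsk7, a proprotein convertase, was higher under HFD in GFP-high (26.2 to 32.8 CPM, log2 0.32, interval 0.01 to 0.63) and lower in GFP-low (59.8 to 48.2 CPM, log2 -0.31, interval -0.57 to -0.05). None of the 10 genes of the set showed such a reversal.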

How the results depend on the processing

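No paired analysis was possible because the labels give no replicate numbers and each group has 1 library. The 691 genes called for diet became 1158 with every gene of at least 1 count, 189 with DESeq2 and 0 with edgeR without fraction as a term (149 at an unadjusted p under 0.05). The 5090 called between the fractions became 2390 with DESeq2 and 2948 without diet as a term. At 20 CPM in place of 5, the 238 and 434 genes with a 2-fold diet difference in GFP-high and GFP-low became 96 and 213. Per kilobase of the longest transcript, Ppard took 83.2%, 79.1%, 81.6% and 78.4% of the PPAR counts (control and HFD GFP-high, control and HFD GFP-low). DESeq2 called 15 PPAR targets higher for diet in place of 24, and 3 in place of 6 higher and 16 in place of 24 lower in GFP-high. With library totals the median of the RXR partner receptors between the fractions turned from -0.08 to 0.12. Per kilobase of the longest transcript, log2 Ncor1 over Ppard turned from 0.36 to -0.15 in control GFP-low and from 0.09 to -0.42 in HFD GFP-low. The causes of these shifts were not tested, beyond the number of genes or terms that a setting itself changes. TMM factors from the tested genes only, and a fit without robust spread, were added after seeing the data and gave 545 and 746 calls for diet.

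Among the 10 genes, no log2 value changed sign under any alternative run. For diet, Angptl4 stayed called in 6 of 7 alternatives and Ppargc1a in 6 of 8. Both were lost without fraction as a term (adjusted p = 1; lowest over the alternatives 7.54e-09 and 2.37e-07), and Ppargc1a also with DESeq2 (0.158). Ppara, Rxra, Nr1h3 and Ppargc1b passed only with every gene of at least 1 count (adjusted p = 0.0383, 0.0269, 0.00974 and 0.0205; highest over the alternatives 1). Between the fractions Pparg, Rxra, Nr1h3 and Ppargc1a were lost without diet as a term (adjusted p = 0.127, 0.0593, 0.102 and 0.14), and Pparg and Nr1h3 with DESeq2. The counts of Pparg were 29 to 62.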
